A study of Homo sapiens with 16 samples.

Results

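The phagocyte NADPH oxidase was followed here through 6 of its genes, CYBB, CYBA, NCF1, NCF4, RAC1 and RAC2, which were picked by symbol from the 23575 symbols of the deposited count table. All 6 were found and all 6 passed the filter on low counts in every comparison. Messenger RNA was sequenced from HL-60, an established human promyelocytic leukaemia line that the labels give as wild type, after exposure to lipoteichoic acid (LTA), a cell wall glycolipid of Staphylococcus aureus. The cells were either undifferentiated (uHL-60) or differentiated into neutrophil-like cells (dHL-60) by an agent not named in the labels. Of the 16 libraries, 12 came from dHL-60, in pairs for each of 6 conditions: no LTA, 1 µg/ml LTA or 10 µg/ml LTA, at 4 h and at 24 h. The remaining 4 came from uHL-60, with a single library for no LTA and for 1 µg/ml LTA at each time. The comparisons ask whether LTA changes the genes in either state, whether dose and time matter, and how untreated cells of the 2 states differ. The labels do not say whether the libraries of a pair stem from separate cultures, and the p-values here reflect only how far these libraries differ, which may be a technical spread.

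The oxidase passes electrons from cytosolic NADPH across a membrane to oxygen and makes superoxide, the starting point of the respiratory burst with which neutrophils attack ingested microbes. CYBB encodes gp91phox (NOX2), the catalytic subunit, which carries the flavin and the haems, and CYBA encodes p22phox, the partner that holds it stable in the membrane; the pair forms flavocytochrome b558. NCF1 encodes p47phox, the organiser that is phosphorylated when the cell is activated and docks on p22phox, and NCF4 encodes p40phox, which binds phosphatidylinositol 3-phosphate on phagosomes. RAC1 and RAC2 encode small GTPases that switch the assembled enzyme on; RAC2 is largely restricted to blood cells and RAC1 is made in most cells. Inherited loss of the catalytic, membrane or cytosolic phox subunits is a cause of chronic granulomatous disease.

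CYBB and NCF1 spanned the widest ranges of level among the 6 genes, and the stretches before their starts are printed for that reason. The 250 bases before each start were taken from RefSeq (GRCh38.p14), for CYBB from chrX:37779809-37780058 and for NCF1 from chr7:74773761-74774010, both on the plus strand. They are written 5′ to 3′ with the capitals marking the core GAGGAA bound by PU.1, here read on the opposite strand as TTCCTC. CYBA also had an entry and is described by its matches only.
CYBB: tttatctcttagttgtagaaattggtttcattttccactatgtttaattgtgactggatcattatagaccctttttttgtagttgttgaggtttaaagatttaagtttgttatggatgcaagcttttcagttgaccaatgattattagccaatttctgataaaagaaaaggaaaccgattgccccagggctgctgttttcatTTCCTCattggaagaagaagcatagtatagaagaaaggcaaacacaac
NCF1: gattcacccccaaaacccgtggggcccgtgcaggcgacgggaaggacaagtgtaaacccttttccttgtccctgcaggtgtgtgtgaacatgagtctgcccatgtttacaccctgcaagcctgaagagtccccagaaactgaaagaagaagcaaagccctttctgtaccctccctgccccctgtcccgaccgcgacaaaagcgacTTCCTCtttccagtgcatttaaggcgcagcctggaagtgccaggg
Each of these windows held 1 match to GAGGAA on either strand, 48 bases before the start in CYBB and 45 bases before it in NCF1. The CYBA window held 0 matches. Over all 35116 promoters of the same table, 23.6% held at least 1 match within 250 bases. CYBB also held 4 matches to CCAAT on either strand, at 230, 116, 102 and 42 bases before the start, against 0 in NCF1 and 0 in CYBA, and 32% of all promoters held at least 1. The last of these follows directly on the GAGGAA match without overlapping it. TATAAA, present in 10.7% of promoters, and TGANTCA, the AP-1 site, present in 6.57%, had 0 matches in all 3 windows. A match is a description of letters and not of a bound site, and no binding was measured here.

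Library totals ran from 9653374 to 16530277 counts in dHL-60 and from 15356752 to 20157081 in uHL-60. Levels are given as CPM, the counts of a gene relative to the library total after scaling by TMM factors. The 12 mature neutrophil markers summed to between 1366 and 13519 CPM in dHL-60 libraries and between 326 and 364 CPM in uHL-60 libraries. The 7 promyelocyte markers summed to between 4878 and 22540 CPM in dHL-60 and between 23826 and 26555 CPM in uHL-60. In dHL-60 most of the neutrophil sum was S100A8 and S100A9, with group means of 269 to 3414 CPM and 462 to 5739 CPM. Most of the promyelocyte sum was MPO, with group means of 4709 to 16118 CPM in dHL-60 and 20458 to 22733 CPM in uHL-60. Within the neutrophil list FCGR3B and CEACAM8, which define the mature cell, stayed near 0, with group means of at most 1.44 CPM. The 8 monocyte and macrophage markers summed to between 3307 and 6879 CPM in dHL-60 libraries, with CD163, MRC1 and MARCO at or near 0. Most of that sum was LYZ, with dHL-60 group means of 2305 to 5364 CPM. CD68 went against the list, with group means of 0.17 to 0.82 CPM in dHL-60 and 14.7 to 18.2 CPM in uHL-60. Lymphocyte markers summed to at most 3.92 CPM. The 6 red cell and platelet markers summed to 34.2 and 37.5 CPM in the untreated dHL-60 pair at 4 h, with 1 of them at 0, and to 22.8 and 25.8 CPM with 10 µg/ml LTA at 4 h, with 2 at 0. In all other libraries they summed to at most 3.60 CPM, with 2 to 6 at 0. Library pairs of a group differed by more than counting noise: chi-square divided by its degrees of freedom was 10.9 to 19.96. In bulk RNA, fewer cells of a type and less RNA per cell cannot be told apart.

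CYBB, the catalytic subunit (GRCh38, chrX:37780011-37813461, plus strand), had its highest levels in dHL-60 given LTA for 4 h. Its 2 libraries held 989 and 944 CPM in untreated dHL-60 at 4 h, 1628 and 1685 CPM with 1 µg/ml LTA and 1896 and 1463 CPM with 10 µg/ml LTA. At 24 h they held 413 and 367 CPM untreated, 977 and 816 CPM with 1 µg/ml and 952 and 1034 CPM with 10 µg/ml. In uHL-60 the 4 libraries held 96.7 CPM (untreated, 4 h), 97.2 CPM (LTA, 4 h), 93.3 CPM (untreated, 24 h) and 92.5 CPM (LTA, 24 h). All dHL-60 libraries lay above all uHL-60 libraries, and at each time both LTA groups lay above the untreated pair without overlap. In the order of group means the 2 LTA doses overlapped at 4 h, and below them the 24 h groups given LTA overlapped the untreated 4 h pair. The highest group mean was 18.2 times the lowest over the 10 groups and 4.31 times the lowest within dHL-60. The annotation places 1 other gene model over CYBB on the same strand, and strand would not separate the reads they share.

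CYBA, the membrane partner (GRCh38, chr16:88643283-88651152, minus strand), moved less. In dHL-60 at 4 h it held 224 and 209.6 CPM untreated, 410.3 and 279 CPM with 1 µg/ml LTA and 236 and 295 CPM with 10 µg/ml. At 24 h it held 105 and 147 CPM untreated, 176 and 142 CPM with 1 µg/ml and 208 and 161 CPM with 10 µg/ml. The uHL-60 libraries held 115 and 127 CPM untreated at 4 and 24 h and 123 and 111 CPM with LTA. The untreated dHL-60 pair at 24 h enclosed the levels of uHL-60, unlike CYBB. The fold from the lowest to the highest group mean was 3.09. Libraries of a pair differed by up to 38.2% of their mean, so several neighbouring groups in the order of CYBA overlap.

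The 2 membrane subunits therefore changed their proportion. Within a library, CYBB had 0.732 to 0.844 times as many counts as CYBA in uHL-60, and group means of 3.22 to 6.49 times as many in dHL-60. Counts are not scaled by length, and only the change of a ratio between groups is read from it. No dHL-60 library came near the uHL-60 ratios, since the lowest, an untreated library at 24 h, was at 2.51.

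NCF1, the organiser (GRCh38, chr7:74773962-74789315, plus strand), had the widest range of the 6. In dHL-60 at 4 h it held 441 and 245 CPM untreated, 1736 and 1153 CPM with 1 µg/ml LTA and 1165 and 1112 CPM with 10 µg/ml. At 24 h it held 55.2 and 53.7 CPM untreated, 241 and 141 CPM with 1 µg/ml and 701 and 472 CPM with 10 µg/ml. In uHL-60 it held 12.2 and 9.62 CPM untreated at 4 and 24 h and 17.8 and 8.84 CPM with LTA. Every dHL-60 group stood clear of its neighbours in the order of means except the 2 LTA doses at 4 h, which overlapped. The highest group mean was 163 times the lowest over all groups and 26.5 times the lowest within dHL-60.

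NCF1 has the near-identical copies NCF1B and NCF1C on the same chromosome, and the counting could divide reads among the 3, so the level of NCF1 alone is uncertain. NCF1C held 0.478 to 0.678 times the counts of NCF1 in dHL-60 group means and NCF1B 0.215 to 0.355 times. The copies followed NCF1 through the groups: NCF1C group means ran from 4.54 CPM in uHL-60 with LTA at 24 h to 987 CPM in dHL-60 with 1 µg/ml LTA at 4 h, and NCF1B from 2.43 to 514 CPM in the same 2 groups. With the 3 genes summed, an alternative added after the data were seen, the log2 fold change at 4 h with 1 µg/ml LTA was 2.11 against 2.07 for NCF1 alone, and no call on NCF1 changed.

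**Figure D1:**
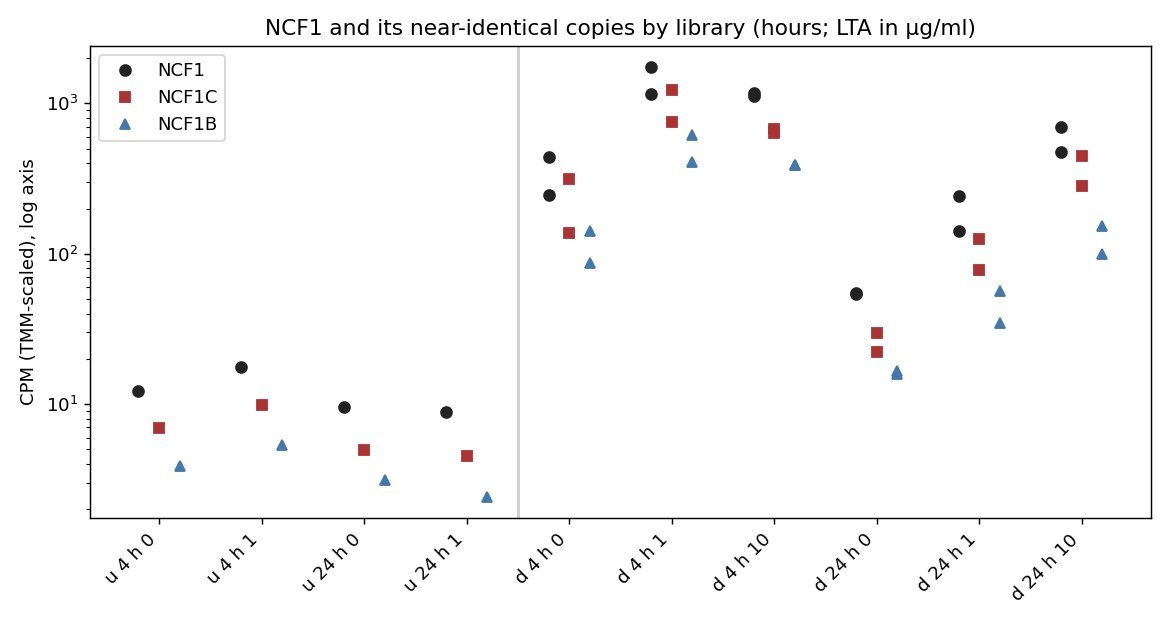
Levels of NCF1 and of its copies NCF1C and NCF1B in each library (y axis, TMM-scaled CPM on a log axis) for the 10 groups (x axis: u undifferentiated, d differentiated, hours, then LTA in µg/ml). Each symbol is 1 library; the copies keep the order NCF1, NCF1C, NCF1B in every group and rise and fall together, from at most 17.8 CPM for NCF1 in uHL-60 to 1736 CPM in dHL-60.

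NCF4 (GRCh38, chr22:36860988-36878015, plus strand) had the narrowest range. In dHL-60 at 4 h it held 584 and 449.8 CPM untreated, 428 and 347 CPM with 1 µg/ml LTA and 405 and 391 CPM with 10 µg/ml. At 24 h it held 345 and 378 CPM untreated, 455 and 439 CPM with 1 µg/ml and 593 and 473 CPM with 10 µg/ml. In uHL-60 it held 204 and 244 CPM untreated at 4 and 24 h and 219.8 and 226 CPM with LTA. At 4 h the libraries given LTA lay below the untreated pair and at 24 h above it, with no overlap. All dHL-60 libraries lay above all uHL-60 libraries, yet the highest group mean was only 1.47 times the lowest within dHL-60. NCF4 is overlapped by the antisense gene NCF4-AS1, and the sources used here do not say whether reads were assigned by strand. Without strand, reads of the 2 genes cannot be told apart.

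The ratio of NCF1 to NCF4 showed the different courses of the 2 cytosolic subunits. In dHL-60 at 4 h the NCF1 counts were 0.756 and 0.544 times those of NCF4 untreated and 4.06 and 3.32 times with 1 µg/ml LTA. At 24 h they were 0.160 and 0.142 times untreated and 1.18 and 0.999 times with 10 µg/ml. The lowest ratios, 0.0391 to 0.0809, were those of uHL-60.

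RAC1 (GRCh38, chr7:6374523-6403977, plus strand) held 307 and 268 CPM in untreated dHL-60 at 4 h, 499.9 and 449 CPM with 1 µg/ml LTA and 494 and 494 CPM with 10 µg/ml. At 24 h it held 174 and 157 CPM untreated, 250.3 and 241 CPM with 1 µg/ml and 338 and 321 CPM with 10 µg/ml. In uHL-60 it held 152 and 139 CPM untreated at 4 and 24 h and 151 and 144 CPM with LTA. Its pairs were the tightest of the 6 genes, with a median difference of 7.68% of the mean. The LTA groups lay above the untreated pair at each time with no overlap, and of neighbouring dHL-60 groups only the 2 doses at 4 h overlapped.

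RAC2 (GRCh38, chr22:37225261-37244448, minus strand), the GTPase of blood cells, behaved otherwise at 4 h. It held 1089.9 and 762 CPM untreated, 1276 and 975 CPM with 1 µg/ml LTA and 1139 and 1166 CPM with 10 µg/ml, so that the low-dose pair overlapped the untreated pair. At 24 h it held 389 and 419.6 CPM untreated, 535 and 543 CPM with 1 µg/ml and 1142 and 915 CPM with 10 µg/ml, and the 3 pairs stood apart in the order of dose. In uHL-60 it held 315 and 325 CPM untreated at 4 and 24 h and 319 and 300.0 CPM with LTA. The 4 highest groups in the order of RAC2 overlapped one after another, and a clear step lay below them.

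The ratio of RAC2 to RAC1 counts in a library was 3.55 and 2.85 in untreated dHL-60 at 4 h and 3.37 and 2.85 with 10 µg/ml LTA at 24 h. The other dHL-60 libraries lay between 2.14 and 2.67 and uHL-60 between 2.07 and 2.34. Per kilobase of the principal transcript, RAC2 in untreated dHL-60 at 4 h reached 625 CPM, the highest of the 6 genes there, and it was also the highest at 366 CPM per kilobase when all annotated exons were counted. The order of the remaining genes changed with the length used and is not given.

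**Figure D2:**
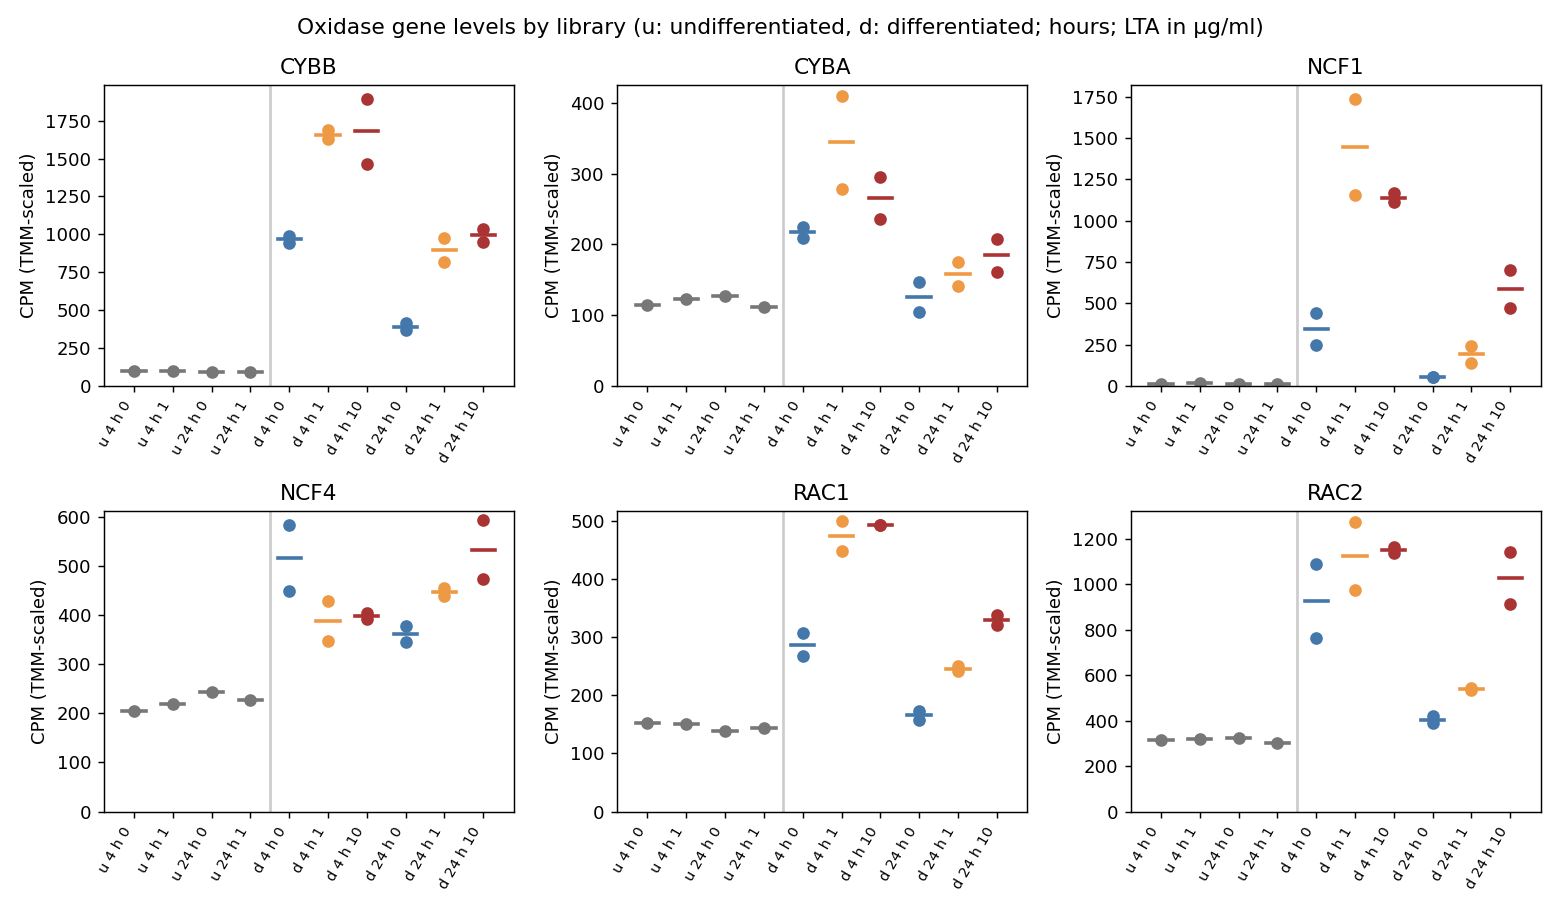
Level of each oxidase gene (y axis, TMM-scaled CPM from 0) in the 10 groups (x axis: u undifferentiated, d differentiated, hours, then LTA in µg/ml). Points are libraries and bars are group means. NCF4 has lower LTA groups at 4 h, a difference not called at either dose. CYBB and NCF1 stand out by the gap between uHL-60, at 92.5 to 97.2 CPM and 8.84 to 17.8 CPM, and dHL-60.

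**Figure D3:**
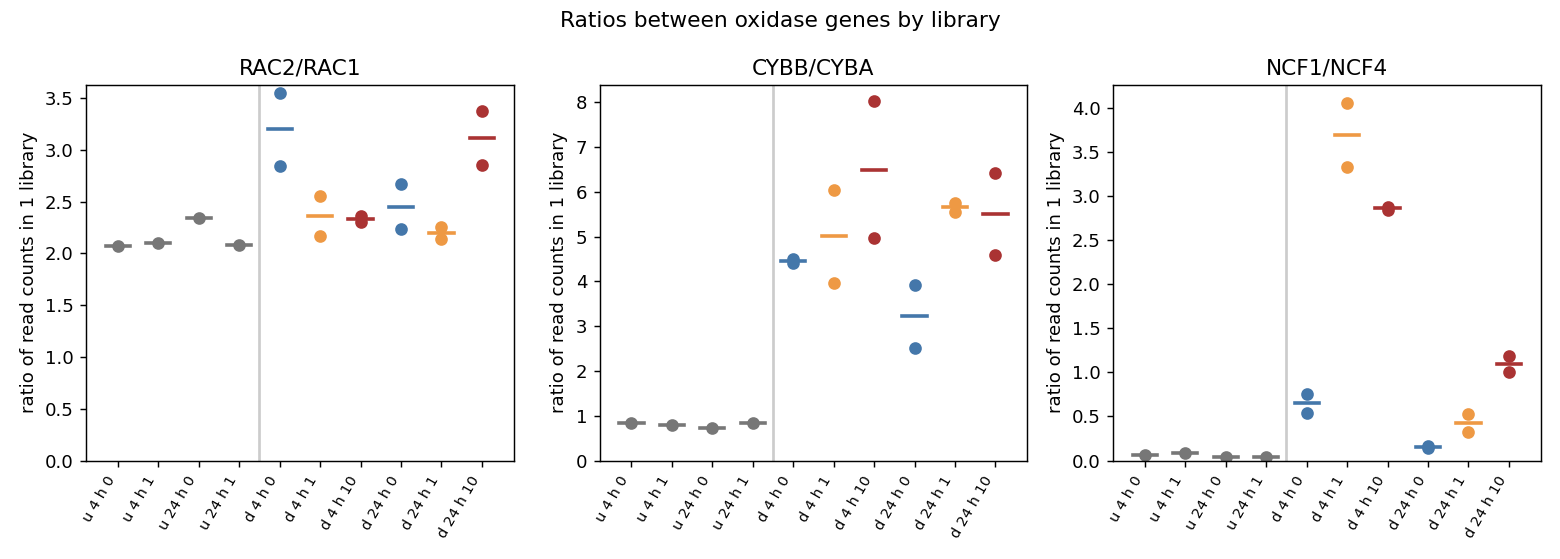
Ratios of the read counts of 2 oxidase genes within a library (y axis) in the 10 groups (x axis as for the plot of levels). Points are libraries and bars are group means; CYBB/CYBA lies under 1 in all 4 uHL-60 libraries and above 2 in all dHL-60 libraries, and NCF1/NCF4 is highest with LTA at 4 h.

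LTA at 4 h raised the genes for the catalytic subunit, the organiser and RAC1 in dHL-60 at both doses. All adjusted p-values of genes come from edgeR's quasi-likelihood test with Benjamini-Hochberg adjustment over all genes tested. With 1 µg/ml the log2 fold change was 2.07 ± 0.31 (SE; adjusted p = 0.00014) for NCF1, 0.78 ± 0.16 (adjusted p = 0.0015) for CYBB and 0.72 ± 0.13 (adjusted p = 0.000608) for RAC1. CYBA, at 0.67 ± 0.21 (adjusted p = 0.0233), was the 4th member called higher, against a background of 18.7% of 11866 genes called higher and 20.1% called lower. The CYBA call was lost without untreated replicate 1 (log2 fold change 0.73, adjusted p = 0.0553), without untreated replicate 2 (0.61, adjusted p = 0.0923) and without LTA replicate 1 (0.36, adjusted p = 0.248). RAC2, at 0.28 ± 0.18 (adjusted p = 0.25), and NCF4, at -0.42 ± 0.16 (adjusted p = 0.0586), were not called. RAC2 passed without untreated replicate 1 (0.57, adjusted p = 0.0339). NCF4 passed as lower without untreated replicate 2 (-0.60, adjusted p = 0.0164), without LTA replicate 1 (-0.58, adjusted p = 0.0415), with upper-quartile scaling (-0.54, adjusted p = 0.0128) and with no filter on low counts (-0.42, adjusted p = 0.0299).

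With 10 µg/ml at 4 h, 3 of the 6 were called higher, where 20% of all genes were. The log2 fold change was 1.73 ± 0.30 (adjusted p = 0.000491) for NCF1, 0.80 ± 0.16 (adjusted p = 0.0011) for CYBB and 0.79 ± 0.13 (adjusted p = 0.000293) for RAC1. The genes called lower made up 21.3% of all genes. CYBA (0.30 ± 0.21), RAC2 (0.32 ± 0.18) and NCF4 (-0.37 ± 0.16) were not called, with adjusted p-values of 0.284, 0.183 and 0.0854. Without untreated replicate 1 RAC2 passed at 0.61 (adjusted p = 0.0235), and without untreated replicate 2 NCF4 passed as lower at -0.56 (adjusted p = 0.023), as it did with upper-quartile scaling at -0.50 (adjusted p = 0.0167). The 1 and 10 µg/ml comparisons share the untreated libraries. Neutrophil markers summed to 4575 to 6351 CPM in the untreated pair and 6063 to 6455 CPM in the 4 libraries given LTA. Of these 12, 3 were called higher and 2 lower at 1 µg/ml, and 3 higher and 4 lower at 10 µg/ml. Promyelocyte markers summed to 9115 and 12025 CPM untreated and 7564 to 9277 CPM with LTA. Of these 7, 0 were called higher at either dose, and 3 were called lower at 1 µg/ml and 4 at 10 µg/ml. Monocyte and macrophage markers summed to 4090 and 4742 CPM untreated and 6142 to 6879 CPM with LTA, with 3 of the 4 tested called higher and 1 called lower at each dose. Red cell and platelet markers summed to 34.2 and 37.5 CPM untreated, 0.746 and 0.945 CPM with 1 µg/ml and 22.8 and 25.8 CPM with 10 µg/ml, with 2 and 1 of the 3 tested called lower. The part of these markers in the result was not tested. Upper-quartile scaling moved the median log2 fold change of all genes from -0.04 to -0.16 with 1 µg/ml and to -0.17 with 10 µg/ml, and turned the genes called higher and lower from 2214 and 2380 into 1805 and 3077, and from 2379 and 2524 into 1868 and 3263.

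Against untreated cells at 24 h, the low dose had raised NCF1, CYBB and RAC1 and the high dose all 6 genes. The low-dose means of NCF1, CYBB and RAC1 stayed under those of untreated cells at 4 h. They were 191 against 343 CPM for NCF1, 897 against 966 CPM for CYBB and 246 against 287 CPM for RAC1. With the high dose this held for CYBA alone, at 184 against 217 CPM. With 1 µg/ml, NCF1 was higher by a log2 fold change of 1.83 ± 0.31 (adjusted p = 0.000916), CYBB by 1.22 ± 0.16 (adjusted p = 0.000107) and RAC1 by 0.58 ± 0.13 (adjusted p = 0.00554), against 13.9% of all genes called higher. RAC1 missed the threshold without untreated replicate 2 (0.50, adjusted p = 0.0639) or without LTA replicate 1 (0.55, adjusted p = 0.0551). RAC2 (0.43 ± 0.18, adjusted p = 0.118), CYBA (0.35 ± 0.21, adjusted p = 0.266) and NCF4 (0.32 ± 0.16, adjusted p = 0.184) were not called. RAC2 passed with no filter on low counts (0.43, adjusted p = 0.0453) and with only the groups compared (0.41, adjusted p = 0.0335). Neutrophil markers summed to 1366 and 1383 CPM in the untreated pair and 6576 and 6724 CPM with 1 µg/ml, with 7 of 12 called higher and 2 lower, and promyelocyte markers to 17170 and 22540 CPM and 6354 and 9436 CPM, with 7 of 7 called lower. Their part in the result was not tested. Upper-quartile scaling turned the genes called higher and lower here from 1651 and 862 into 1441 and 1179.

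With 10 µg/ml at 24 h all 6 members were called higher, where 23.6% of all genes were. NCF1 changed most, by 3.45 ± 0.33 on the log2 scale (adjusted p = 2.74e-06). CYBB and RAC2 each rose by 1.37, with SE of 0.16 and 0.19 and adjusted p-values of 1.55e-05 and 6.67e-05. RAC1 rose by 1.02 ± 0.13 (adjusted p = 3.66e-05), NCF4 by 0.58 ± 0.16 (adjusted p = 0.0113) and CYBA by 0.58 ± 0.21 (adjusted p = 0.0415). CYBA and NCF4 missed the threshold without untreated replicate 1 (adjusted p = 0.301 and 0.0835) and without LTA replicate 1 (adjusted p = 0.352 and 0.181), and CYBA also with upper-quartile scaling (0.50, adjusted p = 0.0648). The neutrophil marker sum went from 1366 and 1383 CPM in the untreated pair to 12318 and 13519 CPM with 10 µg/ml. Of the 12 markers, 7 were called higher and 0 lower. Most of the high-dose sum was S100A9, S100A8 and MMP9, with group means of 5739, 3414 and 2368 CPM. CSF3R, CXCR2, CEBPE, FCGR3B and CEACAM8 had lower group means with 10 µg/ml than untreated, and none of these was called. Promyelocyte markers went from 17170 and 22540 CPM to 4878 and 6035 CPM, with 7 of 7 called lower. Their part in the result was not tested.

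**Figure D4:**
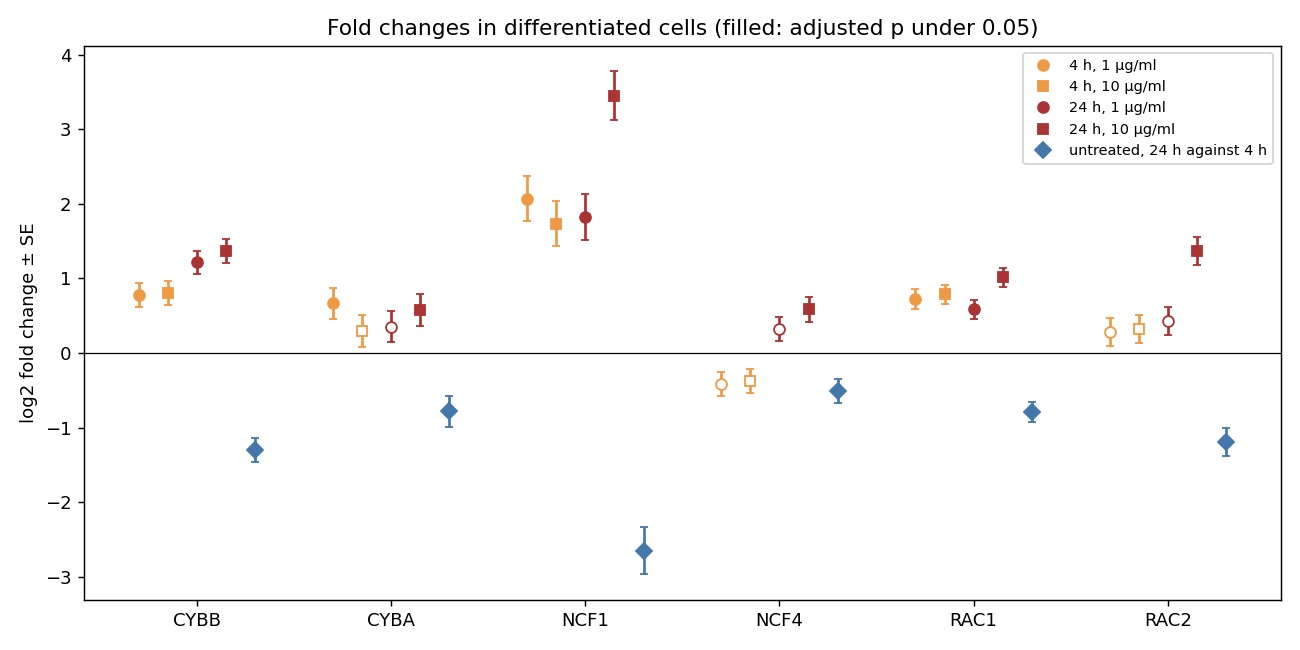
Log2 fold changes with SE (y axis) of the 6 oxidase genes (x axis) in dHL-60 for 1 and 10 µg/ml LTA against untreated at 4 and 24 h and for untreated cells at 24 h against 4 h; each point is a contrast of 2 groups of 2 libraries, and filled symbols have an adjusted p under 0.05. All 6 filled 24 h squares lie above 0 and all 6 untreated diamonds below it, with NCF1 farthest out at 3.45 and -2.65.

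A 10-fold higher dose made no called difference to the members at 4 h. There 0 of the 6 were called by edgeR between 10 and 1 µg/ml, with log2 differences of -0.37 (CYBA) to 0.06 (RAC1), and of all genes 0.00843%, which is 1 gene, one of the red cell and platelet markers, was called, while 216 genes had an unadjusted p under 0.05 and DESeq2 called 2. At 24 h the high dose gave more NCF1, by a log2 fold change of 1.63 ± 0.30 (adjusted p = 0.0109), and more RAC2, by 0.94 ± 0.19 (adjusted p = 0.0138), where 3.03% of all genes were higher. RAC1 (0.43, adjusted p = 0.0803), NCF4 (0.26, adjusted p = 0.357), CYBA (0.22, adjusted p = 0.554) and CYBB (0.16, adjusted p = 0.579) were not called. RAC1 passed with DESeq2 (0.44, adjusted p = 0.0321). Both calls rested on few libraries: NCF1 was lost without low-dose replicate 2 (1.29, adjusted p = 0.15) or high-dose replicate 1 (1.30, adjusted p = 0.115), and RAC2 without low-dose replicate 1 (0.93, adjusted p = 0.0963), low-dose replicate 2 (0.95, adjusted p = 0.134) or high-dose replicate 1 (0.76, adjusted p = 0.167). Neutrophil markers summed to 6576 and 6724 CPM at the low dose and 12318 and 13519 CPM at the high dose, with 4 of 12 called higher and 0 lower, and their part in the result was not tested.

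Untreated dHL-60 lost message of all 6 genes between 4 and 24 h, where 23.1% of all genes were called lower. NCF1 fell by 2.65 ± 0.32 on the log2 scale (adjusted p = 3.02e-05), CYBB fell by 1.30 ± 0.16 (adjusted p = 3.35e-05) and RAC2 fell by 1.19 ± 0.19 (adjusted p = 0.000242). RAC1 fell by 0.79 ± 0.13 (adjusted p = 0.000349), CYBA fell by 0.78 ± 0.21 (adjusted p = 0.00978) and NCF4 fell by 0.51 ± 0.16 (adjusted p = 0.0232). The NCF4 call was lost without untreated replicate 1 at 4 h (-0.30, adjusted p = 0.218), without either untreated replicate at 24 h (-0.45 and -0.56, adjusted p = 0.139 and 0.0593) and when only the 2 groups were fitted (-0.48, adjusted p = 0.0584). The CYBA call was lost without untreated replicate 1 at 24 h (-0.57, adjusted p = 0.119). Over the same interval the neutrophil markers went from 4575 and 6351 CPM to 1366 and 1383 CPM and the promyelocyte markers from 9115 and 12025 CPM to 17170 and 22540 CPM, with 9 of 12 called lower and 3 of 7 called higher. Red cell and platelet markers went from 34.2 and 37.5 CPM to 0.107 and 0.299 CPM, with 2 of the 3 tested called lower. The part of these markers in the fall was not tested. The 24 h responses to LTA are measured against this lower untreated level.

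NCF1 and RAC2 responded more to the high dose at 24 h than at 4 h, and the estimate for NCF4 changed sign. Each gene had a test of the difference between its 2 responses. A greater response here means a higher log2 fold change, with its sign kept. NCF4 went from -0.37 at 4 h to 0.58 at 24 h with 10 µg/ml, and from -0.42 to 0.32 with 1 µg/ml. Of these values only the 0.58 was called. Genes were not tested against one another. With 10 µg/ml the response at 24 h exceeded that at 4 h by 1.72 ± 0.43 on the log2 scale for NCF1 (adjusted p = 0.00762), by 1.05 ± 0.26 for RAC2 (adjusted p = 0.00776) and by 0.96 ± 0.23 for NCF4 (adjusted p = 0.00672), where 19.7% of all genes had a greater response. These 3 calls held in all 15 alternatives tried. With 10 µg/ml the group mean went from 1139 CPM at 4 h to 587 CPM at 24 h for NCF1. It went from 1153 to 1029 CPM for RAC2 and from 398 to 533 CPM for NCF4. Untreated means went from 343 to 54.4 CPM for NCF1, from 926 to 404 CPM for RAC2 and from 517 to 362 CPM for NCF4. Of the neutrophil markers, 8 of 12 had a greater response at 24 h at each dose and 0 a smaller one, and their part in the result was not tested. CYBB, at 0.57 (adjusted p = 0.0618), passed with upper-quartile scaling (0.63, adjusted p = 0.03) and without high-dose replicate 1 at 4 h (0.75, adjusted p = 0.0357). With 1 µg/ml only NCF4 passed, at 0.74 ± 0.23 (adjusted p = 0.0366), where 13.3% of all genes had a greater response. That call was lost with RLE scaling (0.69, adjusted p = 0.0537), with the groups compared alone (0.65, adjusted p = 0.0703), and without any of the libraries untreated replicate 1 (0.53, adjusted p = 0.131) and low-dose replicate 2 (0.59, adjusted p = 0.133) at 4 h, and untreated replicate 1 or 2 and low-dose replicate 1 or 2 at 24 h (0.68, 0.79, 0.71 and 0.77, adjusted p = 0.123, 0.0653, 0.104 and 0.0816).

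Untreated dHL-60 had more message than untreated uHL-60 for 5 of the 6 genes, over 4 and 2 libraries with time as an additive term, where 29.7% of all genes were called higher. NCF1 was higher by a log2 fold change of 3.51 ± 0.54 (adjusted p = 0.000732) and CYBB by 2.62 ± 0.31 (adjusted p = 0.000165). NCF4 was higher by 0.90 ± 0.23 (adjusted p = 0.00875), RAC2 by 0.86 ± 0.30 (adjusted p = 0.0331) and RAC1 by 0.54 ± 0.20 (adjusted p = 0.0437), and CYBA, at 0.39 ± 0.25 (adjusted p = 0.193), was not called. Any batch of culture, library preparation or read counting common to the uHL-60 libraries cannot be told apart from the state of the cells. The uHL-60 values were also stored in another symbol order than those of dHL-60. Neutrophil markers summed to 326 and 349.7 CPM in untreated uHL-60 and 1366 to 6351 CPM in untreated dHL-60, with 9 of 12 called higher and 0 lower. Promyelocyte markers, mostly MPO, summed to 26124 and 26555 CPM against 9115 to 22540 CPM, and the list was mixed. Of these 7, AZU1 (1.21) and ELANE (0.67) were called higher, and MPO (-1.01), KIT (-1.20) and PRTN3 (-2.76) lower. Monocyte and macrophage markers, mostly LYZ, summed to 381 and 462 CPM against 4090 to 5574 CPM. Of the 5 tested, 4 were called higher and 1, CD68, lower (-5.49). Eosinophil and basophil markers, nearly all PRG2, summed to 4371 and 4481 CPM against 3.09 to 22.6 CPM. The part of these markers in the result was not tested.

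The size of this difference depended on which time was compared. Leaving out the uHL-60 library of 24 h gave 4.75 for NCF1 and 3.25 for CYBB, and leaving out that of 4 h gave 2.49 and 2.05. Without the 4 h uHL-60 library CYBA was at -0.03 and NCF4, RAC1 and RAC2 were no longer called (0.55, 0.24 and 0.30, adjusted p = 0.0662, 0.372 and 0.344), and without that of 24 h CYBA was called at 0.85 (adjusted p = 0.00465). RAC1 was also lost without any 1 of the 4 dHL-60 libraries (0.46, 0.55, 0.57 and 0.62, adjusted p = 0.095, 0.0877, 0.0873 and 0.0673). RAC2 was lost without dHL-60 replicate 1 or 2 at 4 h (0.69 and 0.90, adjusted p = 0.0536 and 0.0651) and replicate 2 at 24 h (0.94, adjusted p = 0.0583). Upper-quartile scaling moved the median log2 fold change of all genes from 0.01 to 0.13.

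In uHL-60 no member was called with 1 µg/ml LTA, in a test over both times with 1 residual degree of freedom. edgeR called 0.209% of all genes, which is 23, with 296 at an unadjusted p under 0.05, and DESeq2 called 1 gene. The largest log2 difference among the members was 0.26 ± 0.13, for NCF1 (adjusted p = 0.99991). Within a time there is 1 library a side: NCF1 had 309 counts with LTA and 246 without at 4 h, a log2 ratio of 0.54 (95% exact binomial interval 0.30 to 0.79), and 142 against 187 at 24 h, a log2 ratio of -0.12 (-0.45 to 0.20). The intervals of CYBA and NCF4 also left out 0 at both times, with log2 ratios of 0.10 and 0.11 at 4 h and -0.19 and -0.11 at 24 h. That of RAC2 left out 0 at 24 h (-0.11), and those of CYBB and RAC1 included 0 at both times. All these intervals cover counting error only.

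The responses of the 2 states to 1 µg/ml LTA were compared over all 16 libraries, with each lone uHL-60 library assumed to vary like the dHL-60 replicates. At 4 h RAC1 responded more in dHL-60, by 0.73 ± 0.22 (adjusted p = 0.0471), where 5.43% of all genes did, and NCF1 (1.53, adjusted p = 0.0914) and CYBB (0.77, adjusted p = 0.084) missed the threshold. The RAC1 call was lost with upper-quartile scaling (0.62, adjusted p = 0.071), with no filter on low counts (0.74, adjusted p = 0.0587) and without dHL-60 untreated replicate 2 (0.64, adjusted p = 0.0942) or LTA replicate 1 (0.68, adjusted p = 0.114) or 2 (0.80, adjusted p = 0.0546), and NCF1 passed without untreated replicate 1 (2.06, adjusted p = 0.0152) and with no filter (1.54, adjusted p = 6.93e-06). CYBB passed with DESeq2 (0.82, adjusted p = 0.028) and with no filter (0.78, adjusted p = 0.0432). At 24 h CYBB responded more in dHL-60, by 1.21 ± 0.27 (adjusted p = 0.0361), where 1.35% of all genes did, and NCF1, at 1.93 (adjusted p = 0.112), missed the threshold but passed with no filter (1.93, adjusted p = 9.86e-08). The CYBB call was lost without dHL-60 untreated replicate 1 (1.33, adjusted p = 0.0644) or 2 (1.15, adjusted p = 0.103) or LTA replicate 1 (1.10, adjusted p = 0.13). Upper-quartile scaling turned the genes with a greater and a smaller response at 4 h from 684 and 619 into 577 and 799.

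**Figure D5:**
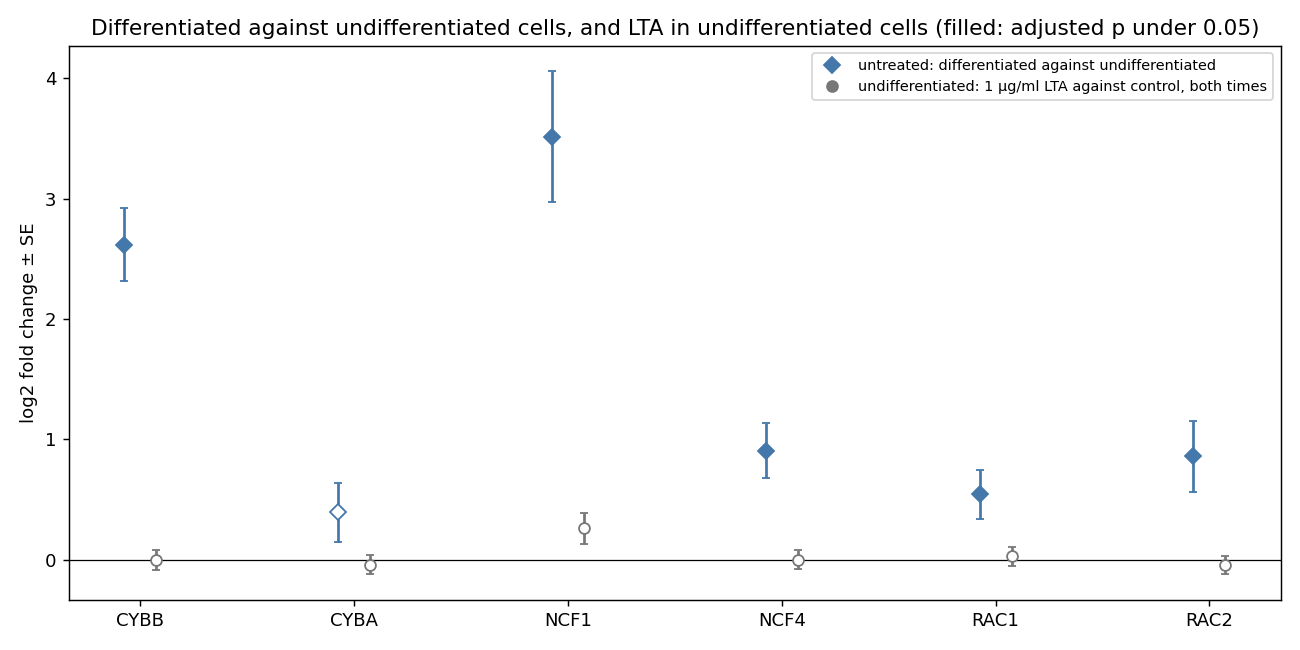
Log2 fold changes with SE (y axis) of the 6 oxidase genes (x axis) for untreated dHL-60 against untreated uHL-60 (diamonds, 4 against 2 libraries) and for LTA against untreated in uHL-60 over both times (circles, 2 against 2 libraries). Filled symbols have an adjusted p under 0.05; the diamonds of NCF1 and CYBB stand at 3.51 and 2.62 and every circle lies within 0.26 of 0.

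Other genes of the pathway were read from lists, given as counts beside the median of all genes, which was between -0.04 and 0.01 in the comparisons of this paragraph. The counts are read against the shares of all genes called higher and lower, which were 18.7% and 20.1% with 1 µg/ml at 4 h, 20% and 21.3% with 10 µg/ml at 4 h, 13.9% and 7.26% with 1 µg/ml at 24 h, 23.6% and 19% with 10 µg/ml at 24 h, 17.8% and 23.1% in untreated dHL-60 over time, and 29.7% and 28.3% in untreated dHL-60 against uHL-60. Of 24 tested partners in oxidase assembly, activation and Rac switching, 5 were higher and 7 lower with 1 µg/ml at 4 h, and the counts with 10 µg/ml were the same, all near the shares of all genes. At 24 h, 7 were higher and 1 lower with 1 µg/ml, and 12 higher and 3 lower with 10 µg/ml, with a list median of 0.41. In untreated dHL-60 from 4 to 24 h 1 was higher and 12 were lower, and against uHL-60 12 were higher and 4 lower. PRKCA, a protein kinase C of the family that phosphorylates p47phox, was higher by 1.03 ± 0.12 with 10 µg/ml at 24 h (adjusted p = 2.25e-05) and by 1.71 ± 0.19 in untreated dHL-60 against uHL-60 (adjusted p = 0.000116).

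The other NADPH oxidases were all but silent. NOX1, NOX3 and NOX5 had 0 counts in every library, and NOX4, DUOX1 and DUOX2 had group means under 1 CPM. NOXA1, an activator of the NOX1 enzyme, was the 1 gene of its list at an appreciable level, with group means of 1.09 to 1.49 CPM in uHL-60 and 23.6 to 89.9 CPM in dHL-60. It was higher in untreated dHL-60 than in uHL-60 by 5.33 ± 0.34 (adjusted p = 5.56e-06) and lower with 10 µg/ml LTA at 24 h by a log2 fold change of -0.68 ± 0.19 (adjusted p = 0.00953), so it took the opposite direction to the oxidase members there.

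Of 10 tested transcription factors known at oxidase promoters, 6 were higher and 1 lower with 1 µg/ml at 4 h, 6 and 2 with 10 µg/ml, 1 and 1 with 1 µg/ml at 24 h, and 4 and 1 with 10 µg/ml at 24 h. NFKB1, a subunit of NF-κB, was higher by 0.91 ± 0.13 (adjusted p = 9.98e-05) and IRF1, an interferon-responsive factor, by 0.93 ± 0.17 (adjusted p = 0.000628) in the last of these. In untreated dHL-60 against uHL-60, 2 were higher, a smaller share than the 29.7% of all genes: HOXA10, a homeobox factor, by 3.91 ± 0.36 (adjusted p = 4.67e-05), from under 1 CPM in uHL-60, and IRF8 by 1.71 ± 0.43 (adjusted p = 0.00858). SPI1, which encodes PU.1, was added after its values were seen. At 4 h it was higher by 0.82 ± 0.19 (adjusted p = 0.00406) with 1 µg/ml and by 0.55 ± 0.19 (adjusted p = 0.0346) with 10 µg/ml. At 24 h it was not called with 1 µg/ml, at 0.42 ± 0.19 (adjusted p = 0.141), and was higher by 1.03 ± 0.19 (adjusted p = 0.000853) with 10 µg/ml. It was not called in untreated dHL-60 against uHL-60, at 0.69 ± 0.27 (adjusted p = 0.0534), or with LTA in uHL-60, at -0.06 ± 0.08 (adjusted p = 0.99991), and fell by 1.06 ± 0.19 (adjusted p = 0.000759) in untreated dHL-60 from 4 to 24 h.

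The genes that dispose of superoxide and peroxide did not go one way. Of 15 tested, 2 were higher and 1 lower with 1 µg/ml at 4 h, 3 and 2 with 10 µg/ml, 2 and 1 with 1 µg/ml at 24 h, 5 and 2 with 10 µg/ml at 24 h, and 3 and 9 in untreated dHL-60 against uHL-60, where 29.7% and 28.3% of all genes were. At 4 h the shares of the list lay near or under those of all genes. SOD2, the mitochondrial superoxide dismutase, was higher by 2.60 ± 0.23 with 10 µg/ml at 24 h (adjusted p = 1.35e-06), and MPO, the myeloperoxidase of primary granules, was lower by a log2 fold change of -1.75 ± 0.22 (adjusted p = 3.57e-05). Against uHL-60, TXN, thioredoxin, was at -2.18 ± 0.26 (adjusted p = 0.000186) and SOD1, the cytosolic dismutase, at -2.03 ± 0.24 (adjusted p = 0.00019). Of 11 genes whose enzymes supply NADPH, 2 were higher and 4 lower at 4 h at each dose, 3 and 0 with 1 µg/ml at 24 h, and 5 and 1 with 10 µg/ml. In the last comparison PGD, a dehydrogenase of the pentose phosphate pathway, was higher by 1.90 ± 0.14 (adjusted p = 2.29e-07) and ME1, cytosolic malic enzyme, by 1.87 ± 0.23 (adjusted p = 2.88e-05). Against uHL-60, 2 of the list were higher and 3 lower, and IDH2, a mitochondrial isocitrate dehydrogenase, was at -0.97 ± 0.17 (adjusted p = 0.00147).

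Across the 12 dHL-60 libraries, which share doses, times and library pairs, log2 CPM of CYBA, CYBB, NCF1, RAC1 and RAC2 varied together with Pearson's r of 0.82 to 0.98 between members, and NCF4 had r of 0.08 to 0.40 with the other 5. The 8396 other genes with a mean of at least 10 CPM were searched in the same libraries for the nearest patterns. Those were KLF6 (0.989), NFKBIZ (0.987) and PTPRE (0.987) for CYBB, and CSNK1G2 (0.965), RNASEK (0.963) and GMIP (0.96) for CYBA. For NCF1 they were STK40 (0.997), the copy NCF1C (0.997) and EFHD2 (0.992), and for NCF4 they were UBXN11 (0.976), SCAMP2 (0.975) and LAMTOR1 (0.972). RAC1 was nearest to TP53INP2 (0.996), SLAMF7 (0.996) and IFNGR2 (0.995), and RAC2 to RHBDD2 (0.979), RIN3 (0.978) and MYL12B (0.978).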

How the data were processed

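RNA of 16 HL-60 libraries was measured, and the sample titles gave each library's group and replicate number. Per the labels' protocols, the libraries were prepared from total RNA with a kit that keeps strand. The authors deposited raw counts of reads per gene symbol, not normalized. The tools in the submitters' processing notes are edgeR 3.36.0, DESeq2 1.28.0, Subread with featureCounts 2.0.1, HISAT2 2.1.0 and fastp 0.20.0, and the build is GRCh38. The annotation and the strand setting are not given in the sources used here.

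The order of the uHL-60 values is that of symbols sorted by character code, in which 1343 of 23575 symbols stand at another position than in the table. They were realigned: over those symbols the correlation of log2 summed counts between uHL-60 and dHL-60 rose from 0.253 to 0.868, and 0 members moved. Counts were scaled by TMM, filtered with filterByExpr and tested two-sided with the quasi-likelihood F test of edgeR 4.0.16 in R 4.3.3, with Benjamini-Hochberg adjustment over all 11020 to 12603 genes tested in a fit and a threshold of 0.05. Comparisons within dHL-60 shared 1 fit over 12 libraries. Untreated dHL-60 and uHL-60 were fitted over 6 libraries, uHL-60 over 4, and differences between states over 16. The scripts were tested on simulated data. Correlations used log2 CPM with a prior count of 2.

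The members and lists were chosen with earlier results of these data known. Named beside the members are, of each list, the 2 genes with the smallest adjusted p among those called with 10 µg/ml LTA at 24 h and the 2 in untreated dHL-60 against uHL-60, and the 3 genes with the nearest pattern to each member; 2 genes the rule took are not reported here. Alternatives were DESeq2 1.42.0, upper-quartile and RLE scaling, no filter on low counts, only the groups compared and the replicate number as a block. Others were the uHL-60 columns as deposited and NCF1 summed with its copies. Each dHL-60 library of the groups compared was also left out in turn. The uHL-60 libraries were left out only for untreated dHL-60 against uHL-60. Gene coordinates are of GRCh38 gene models, and promoters are of RefSeq.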

Additional observations from a re-analysis of the deposited data

Results flagged for a closer look

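Each result here is a difference between 2 responses to LTA that passed its own test, in edgeR's quasi-likelihood test with Benjamini-Hochberg adjustment, and each is on the log2 scale. Between 24 and 4 h in dHL-60, the response of NCF4 to 1 µg/ml LTA differed by 0.74 ± 0.23 (adjusted p = 0.0366). With 10 µg/ml the responses differed by 1.72 ± 0.43 for NCF1 (adjusted p = 0.00762), 0.96 ± 0.23 for NCF4 (adjusted p = 0.00672) and 1.05 ± 0.26 for RAC2 (adjusted p = 0.00776). Between dHL-60 and uHL-60 the response to 1 µg/ml LTA differed by 0.73 ± 0.22 for RAC1 at 4 h (adjusted p = 0.0471) and by 1.21 ± 0.27 for CYBB at 24 h (adjusted p = 0.0361), both higher in dHL-60 and both resting on lone uHL-60 libraries.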

How the results depend on the processing

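Of 870 values of single members recomputed under the alternatives, 787 kept their direction and their side of the threshold, 22 passed it newly, 46 no longer passed it and 15 changed sign, none of these last called either way. The 870 include values whose counts an alternative left unchanged. These are all members with the uHL-60 columns as deposited, and the members other than NCF1 with its copies summed. With 1 library left out, the number of members called ran from 0 to 2 for 10 against 1 µg/ml at 24 h (2 with all libraries), from 0 to 1 for the difference between the 24 and 4 h responses to 1 µg/ml (1), from 2 to 6 for untreated dHL-60 against uHL-60 (5), and from 0 to 2 and 0 to 1 for the difference between the states at 4 and 24 h (1 and 1). The difference between the 24 and 4 h responses to 1 µg/ml called 0 members with RLE scaling and 0 with only the groups compared. The difference between the states at 4 h called 2 with DESeq2, 0 with upper-quartile scaling and 2 with no filter, and that at 24 h called 2 with no filter. Sign changes with 1 library left out left the log2 value of 10 against 1 µg/ml at 4 h between -0.18 and 0.20 for CYBB (-0.0017 without low-dose replicate 1), -0.10 and 0.20 for NCF4, -0.0127 and 0.14 for RAC1 and -0.14 and 0.24 for RAC2. For the difference between the 24 and 4 h responses to 1 µg/ml they left it between -0.75 and 0.12 for NCF1 and -0.14 and 0.39 for RAC2, and for CYBA in untreated dHL-60 against uHL-60 between -0.0345 and 0.85. In uHL-60 with LTA, NCF4 was at -0.00198 with DESeq2, -0.0013 with RLE scaling and -0.0055 with no filter, and CYBB at 0.0123 with upper-quartile scaling. Leave-one-out fits within uHL-60 were not possible, since no residual degree of freedom would remain. For the differences between the states only dHL-60 libraries were left out, so those ranges do not cover the lone uHL-60 libraries. The count of all genes called moved by over 1.5 times as follows. For 10 against 1 µg/ml at 24 h it moved from 453 to 49 to 191 without low-dose replicate 2, high-dose replicate 1 or low-dose replicate 1, to 800 with only the groups compared and to 1354 with no filter. At 4 h it moved from 1 to 22 with no filter and to 2 with DESeq2, with only the groups compared and without high-dose replicate 2. For LTA in uHL-60 it moved from 23 to 1 with DESeq2. For the difference between the states at 24 h it moved from 205 to 652 with no filter and to 88 to 110 without untreated replicate 1 or 2 or LTA replicate 1, and for 1 µg/ml at 24 h from 2513 to 1139 to 1593 without the same 3 libraries. It fell to 3181 from 4903 for 10 µg/ml at 4 h and to 2660 from 4001 for the difference between the high-dose responses without high-dose replicate 1 at 4 h, and to 3138 from 4853 for untreated cells over time and to 1614 from 2461 for the difference between the low-dose responses without untreated replicate 1 at 24 h.

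The replicate numbers were not taken to pair the libraries: the labels name no shared source, and deviations of same-numbered libraries had correlations of -0.20 to 0.38 over 15 group pairs (median 0.09), of which 5 were over 0.1 where all 15 were required. NCF1 and RAC1 were nevertheless higher in replicate 1 than in replicate 2 in all 6 dHL-60 groups, and no other member kept that order. Some of these gaps were very small, at 494.09 against 493.98 CPM for RAC1 with 10 µg/ml LTA at 4 h. For NCF1 in untreated cells at 24 h the pair was 55.2 and 53.7 CPM. With the replicate number as a block, NCF4 was lower with 1 µg/ml at 4 h (-0.41, adjusted p = 0.0333), RAC1 higher with 10 than with 1 µg/ml at 24 h (0.43, adjusted p = 0.0487), and the CYBB response to 10 µg/ml greater at 24 h (0.58, adjusted p = 0.039). The block gave 4 members called higher with 1 µg/ml at 4 h, as without it. Depth did not bound the members, the lowest of which, NCF1 in uHL-60, had 142 counts.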
